A study of Mus musculus with 15 samples.

Results

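The genes of glycolysis and of the pentose phosphate pathway were followed across 15 RNA-seq libraries of mouse CD8+ T cells. The set held 37 genes, 36 listed for their role in the pathway and Hif1a as a regulator, out of 55536 genes of GENCODE M21 in the deposited table. All 37 were among the 17366 genes that passed the filter on low counts. The cells carried the OT-I T cell receptor transgene, which recognises an ovalbumin peptide, on a C57BL/6J background. Naive libraries (n = 5) came from OT-I mice whose cells were never transferred. Ag libraries (n = 5) came from OT-I cells moved into C57BL6/J recipients that were then given antigen alone. Ag+Costim libraries (n = 5) came from such recipients given antigen plus agonist antibodies to OX40 and 41BB, a pair of costimulatory receptors. Per the labels, transferred cells were taken at day 4 from spleen and lymph nodes and sorted as CD8+ T cells. Each library was a biological replicate. The study's methods state that the OT-I mice lacked Rag1 or Rag2, that Ag recipients were also given rat IgG as control antibody, and that animals of both sexes were used. The methods give 1 age range for all mice of the study, and the labels give no age per library. Because Naive cells were neither transferred nor exposed to antigen, the effects of transfer and of antigen cannot be told apart in a comparison with Naive.

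Glycolysis turns glucose into pyruvate: glucose enters through transporters, is trapped by hexokinases, is committed by phosphofructokinase, is split by aldolase, and is oxidised through Gapdh, Pgk1, Pgam1, enolase and pyruvate kinase. Pyruvate is then reduced to lactate, which leaves through monocarboxylate transporters, or enters mitochondria through the pyruvate dehydrogenase complex, which pyruvate dehydrogenase kinases (Pdk) switch off. The pentose phosphate pathway branches off after the first step and yields NADPH and ribose. Resting T cells are known for low glycolytic flux and activated, dividing T cells for high flux with lactate release.

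Library depth and cell content differed in ways that touch every result given here. Total counts ranged from 4865952 in Ag 3 to 25280667 in Naive 3. Lane 2 of the sequencer held the Ag group together with Ag+Costim 1, 2 and 3, and lane 3 held the Naive group with Ag+Costim 4 and 5, so no lane held both Ag and Naive, and a lane term for that comparison rests on the Ag+Costim libraries alone. Naive 5 stood apart from the other Naive libraries: 12 proliferation genes summed to 4644 CPM in it and to between 409 and 1831 CPM in Naive 1 to 4. In Ag the same sum was 5959 in Ag 2, 6374 in Ag 5 and 4546 in Ag 3, but 975 in Ag 1 and 962 in Ag 4, and in Ag+Costim it ran from 5804 to 7043. Ag 3 was the shallowest library, with 16.9% of its sequenced reads counted, and held the highest sums of 5 B cell genes (361 CPM) and 6 erythroid genes (1311 CPM, against 4.39 to 152 in the rest). B cell sums were also raised in Ag 1 (137 CPM) and Ag 4 (168 CPM), against 13.7 to 31.7 CPM in the remaining 12 libraries. Of the 4 tested B cell genes, 3 were called higher in Ag than in Naive, against 3.05% of all genes. All 8 CD8+ T cell genes were detected, with sums of 6466 to 9870 CPM in Naive, 5497 to 9090 in Ag and 5925 to 7051 in Ag+Costim. Sums of 3 CD4+ T cell genes stayed between 3.93 and 33.7 CPM, of 6 myeloid genes between 10.4 and 171 CPM, and of 3 natural killer genes between 26.9 and 104 CPM, and no gene of these lists was at 0 in all libraries. The highest myeloid sum was that of Naive 5. In Ag+Costim vs Naive, 4 of 8 CD8+ T cell, 1 of 3 CD4+ T cell and 2 of 3 natural killer genes were called lower. Of all genes, 23.6% were called lower there. No B cell, myeloid or erythroid gene was called in that comparison. In bulk samples, fewer cells of a type and less RNA per cell cannot be told apart.

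**Figure D1:**
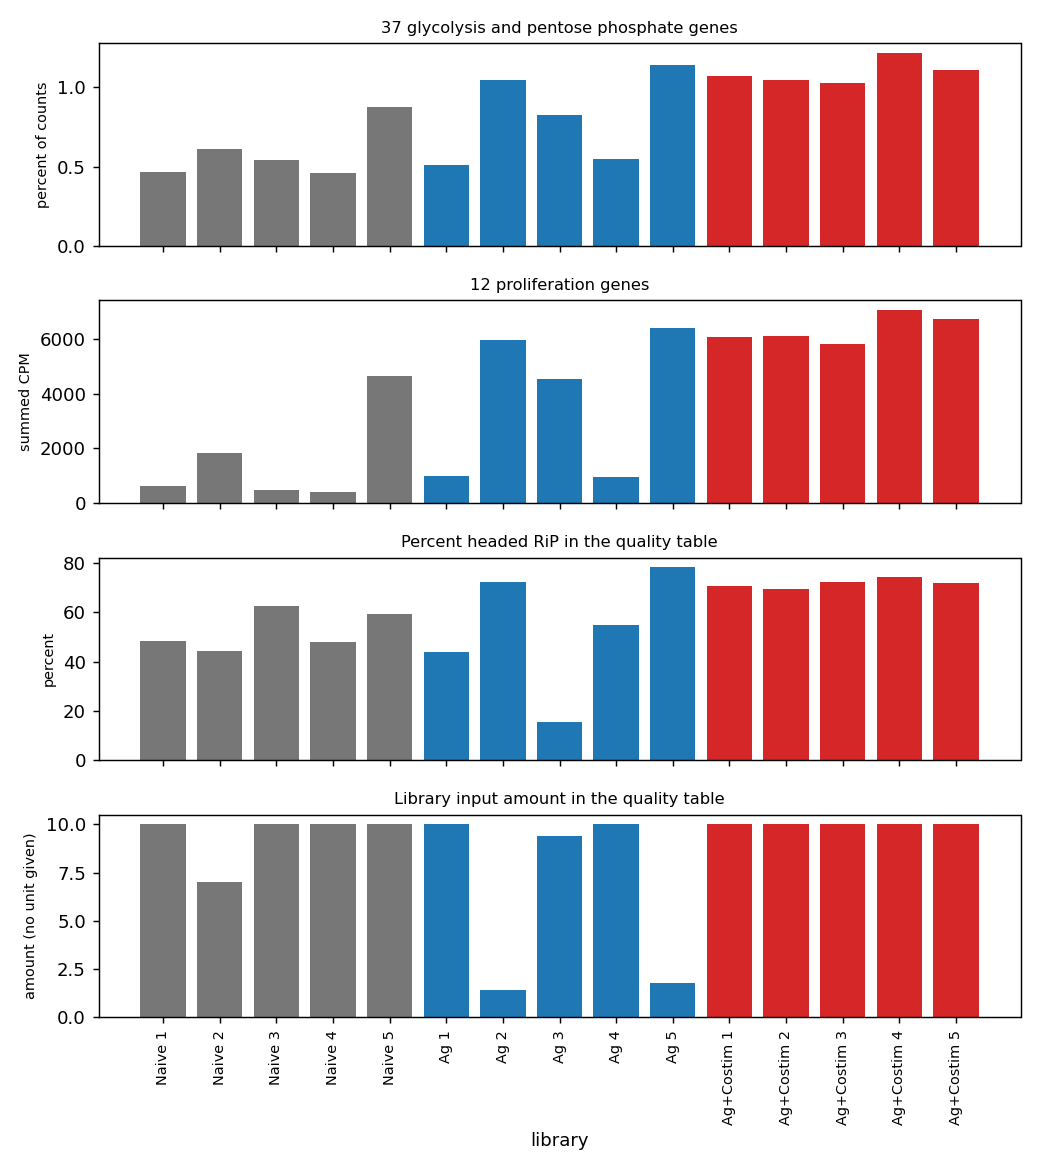
The quantities plotted are 4, in each of the 15 libraries as bars: the percent of all counts that fell on the 37 genes, the summed CPM of 12 proliferation genes, the percent headed RiP in the sequencing core's quality table (not spelled out there) and the library input amount of that table (no unit given). Grey marks Naive, blue Ag and red Ag+Costim. The share of counts on the 37 genes was 0.461% to 0.874% in Naive libraries, 0.509% to 1.14% in Ag libraries and 1.03% to 1.22% in Ag+Costim libraries, and the libraries with a high share also had high sums of proliferation genes.

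Promoter sequences were read for 36 of the 37 genes from RefSeq (build GRCm38.p6), as 250 bases before to 50 bases after each annotated start, 53 promoters in all; Slc2a3 had no entry. They were searched on both strands for ACGTG, the core that hypoxia-inducible factors are known to bind, and for CACGTG, the site of MYC and its partners, which contains ACGTG on both strands. ACGTG was present in a promoter of 21 of the 36 genes, against 21.8% of all 27025 genes with a promoter entry and 29.1% of the 10092 of these that were tested. CACGTG was present in 7 of the 36, against 8.09% of all genes with an entry and 11.5% of tested genes. The 250 bases before the start are shown for Ldha, Pgk1 and Slc16a3, which hold the core and were higher in Ag+Costim than in Naive, and for Pdk1, which has no match and was lower. Capitals mark each ACGTG or its complement CACGT, and sequences run 5′ to 3′ on the plus strand, which is the gene's strand in all 4. The positions are chr7:46845554-46845803 for Ldha, chrX:106186850-106187099 for Pgk1, chr11:120948817-120949066 for Slc16a3 and chr2:71872974-71873223 for Pdk1.
Ldha: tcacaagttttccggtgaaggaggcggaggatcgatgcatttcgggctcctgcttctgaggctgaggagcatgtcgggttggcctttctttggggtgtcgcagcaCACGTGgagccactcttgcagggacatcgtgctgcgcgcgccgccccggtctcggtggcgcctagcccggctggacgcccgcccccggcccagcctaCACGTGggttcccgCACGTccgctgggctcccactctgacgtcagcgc
Pgk1: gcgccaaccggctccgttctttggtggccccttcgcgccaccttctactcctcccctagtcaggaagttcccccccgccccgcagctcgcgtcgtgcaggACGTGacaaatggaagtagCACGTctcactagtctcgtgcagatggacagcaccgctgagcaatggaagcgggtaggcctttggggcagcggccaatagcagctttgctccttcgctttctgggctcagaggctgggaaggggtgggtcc
Slc16a3: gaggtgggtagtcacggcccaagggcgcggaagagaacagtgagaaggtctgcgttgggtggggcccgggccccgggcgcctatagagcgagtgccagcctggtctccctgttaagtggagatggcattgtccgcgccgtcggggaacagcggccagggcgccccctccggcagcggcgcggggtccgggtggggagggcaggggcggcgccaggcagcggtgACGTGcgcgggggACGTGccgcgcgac
Pdk1: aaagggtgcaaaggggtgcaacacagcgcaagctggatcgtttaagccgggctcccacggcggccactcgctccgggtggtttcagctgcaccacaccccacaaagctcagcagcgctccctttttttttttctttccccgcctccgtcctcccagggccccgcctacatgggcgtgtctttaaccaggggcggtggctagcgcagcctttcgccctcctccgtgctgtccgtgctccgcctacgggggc
The Ldha stretch holds 2 CACGTG sites and a further CACGT that begins 34 bases before the start. Pgk1 holds 1 core on each strand, 150 and 131 bases before its start, and Slc16a3 holds 2, at 27 and 14 bases. A match is a description of the letters only. Of the 22 genes called higher in Ag+Costim than in Naive, 13 held ACGTG, as did 1 of the 5 called lower and 7 of the 9 that were not called and had an entry.

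To ask how antigen with and without costimulation changed these genes, each pair of groups was compared with edgeR's quasi-likelihood test over all 17366 genes (Benjamini-Hochberg FDR under 0.05). The ± values beside log2 fold changes are SE. A p-value sets a difference against the spread between libraries, estimated for each gene over all 15 libraries and shared by the groups. In Ag+Costim against Naive, 22 of the 37 genes were called higher and 5 lower, where 21.0% of all genes were called higher and 23.6% lower. The median log2 fold change of the 37 was 0.60, against -0.076 over all genes tested. Levels in CPM (each count over the TMM-scaled library total) did not overlap between these groups for 18 genes that were higher, against 22.7% of all genes, and 4 that were lower, against 22.3%. In Ag against Naive, 0 of the 37 were called higher, against 3.05% of all genes, and 1 was called lower, against 3.66%. An unadjusted p under 0.05 was reached by 13 of the 37 in that comparison, against 28.7% of all genes. CPM of Ag lay wholly above Naive for 1 gene (Aldoc), against 1.76% of all genes, and wholly below for 0, against 2.09%. In that comparison the median log2 fold change of the 37 genes was 0.42, against 0.082 over all genes.

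In Ag+Costim against Ag, edgeR called 0 of the 37 genes in either direction, against 0.0288% of all genes higher and 0.00576% lower. At an unadjusted p under 0.05 there were 10, against 26.8% of all genes. DESeq2 called 6 of the 37, 3 higher and 3 lower. Of the 27085 genes that DESeq2 tested it called 20.5%, 811 higher and 4743 lower. Voom with sample quality weights called 30 of the 37, 23 higher and 7 lower. Of all 17366 genes voom called 64.5%, 5437 higher and 5758 lower. CPM of Ag+Costim lay wholly above Ag for 1 gene (Pgd), against 4.23% of all genes, and wholly below for 0, against 2.10%. The median log2 fold change of the 37 genes was 0.31 there, against -0.10 over all genes. All comparisons share groups, and Ag+Costim vs Naive and Ag vs Naive share the Naive libraries, so their values are given side by side.

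**Figure D2:**
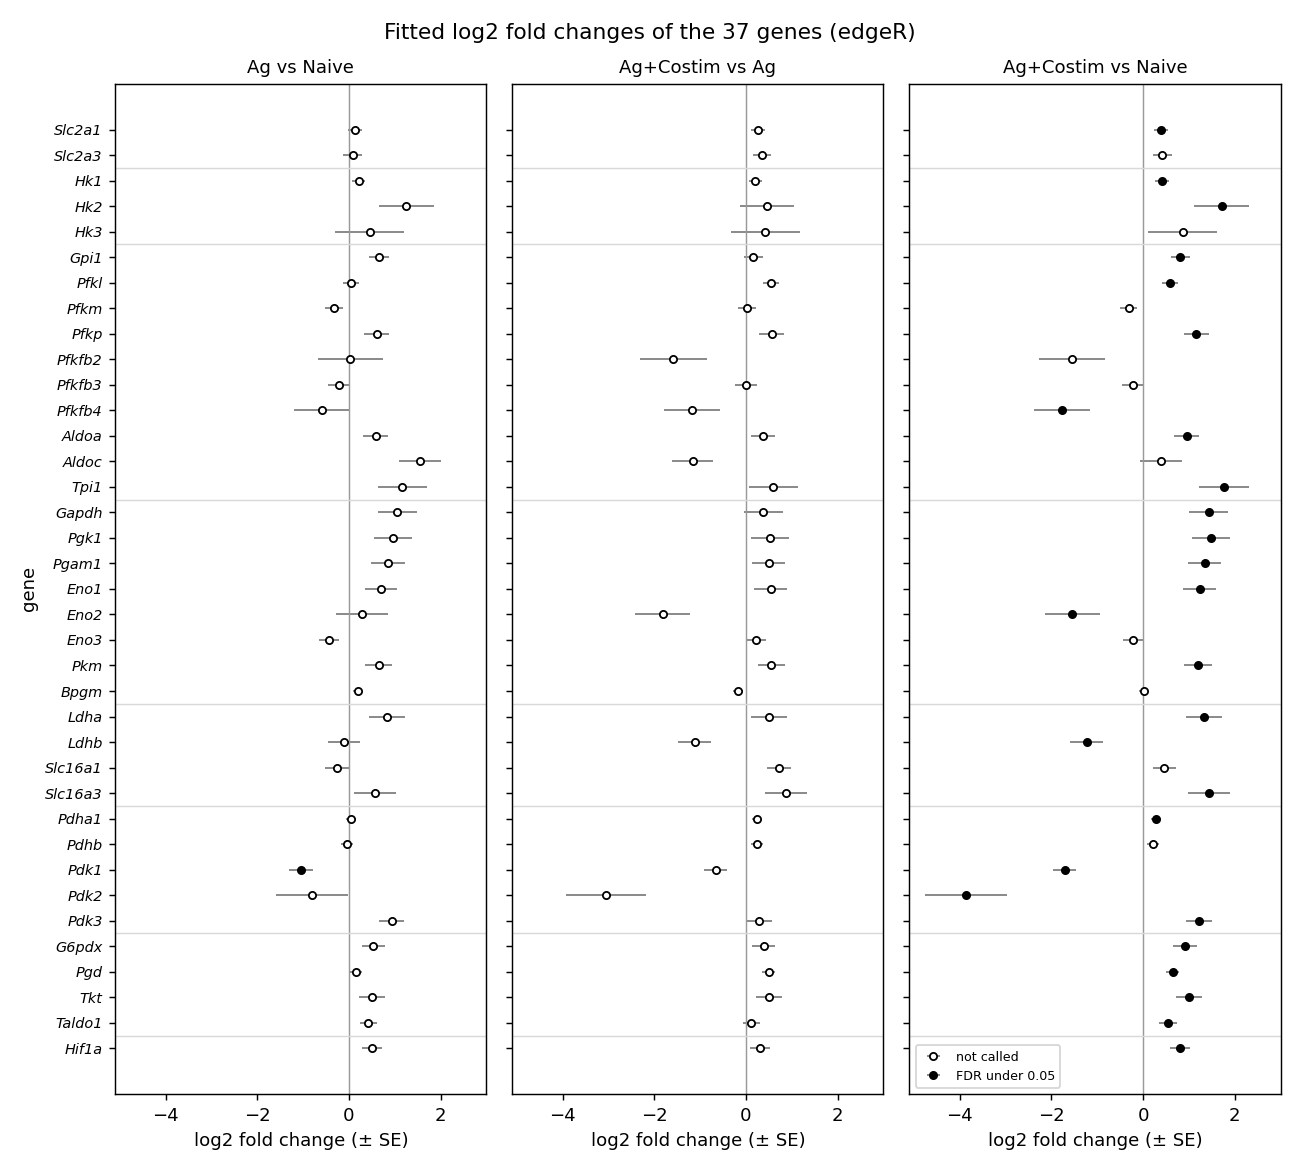
Fitted log2 fold change of each of the 37 genes in the 3 comparisons, with bars of 1 SE, ordered by role from glucose import to Hif1a. Filled points passed an FDR under 0.05: 1 in Ag vs Naive, none of the points of Ag+Costim vs Ag, and 27 of those of Ag+Costim vs Naive, where the lowest point is Pdk2 at -3.86.

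Single libraries moved these counts, for the 37 genes and for all genes together. Without Naive 5, 14 of the 37 genes passed the threshold in Ag vs Naive (13 higher, Pdk1 lower), against 21.5% of all genes. Of those 17981 genes, 2270 were higher and 1601 lower. In Ag+Costim vs Naive 28 of the 37 passed without Naive 5, against 51.0%. Without Naive 1 the count in Ag+Costim vs Naive was 15, against 21.9% of all genes, and without Naive 4 it was 13, against 21.6%. For Ag+Costim vs Ag the count was 5 without Ag 2, against 14.8% of all genes, and 8 without Ag 5, against 19.7%. Within lane 3 alone, 22 genes were called in Ag+Costim vs Naive, 16 higher and 6 lower. Of all 18287 genes tested in lane 3, 34.7% were called, 2571 higher and 3772 lower. Of the 37 genes, the calls lost in lane 3 were those of Slc2a1, Hk1, Hk2, Slc16a3, Pdha1 and Hif1a, and Pfkfb2 was gained. A model of all libraries that also fitted lane left 2 calls in Ag+Costim vs Naive, Pdk1 and Pgd, against 5.43% of all genes. In that model all 27 genes called without the lane term kept their direction and 24 had a larger fold, at FDRs of 0.0380 to 0.237. The 27 were chosen by their calls in the same libraries, so their direction there is a description only. Within lane 2, Ag+Costim 1 to 3 against Ag gave 0 calls, against 0.00% of all genes.

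Glucose import is carried by Slc2a1 (chr4:119108711-119137983) and Slc2a3, the transporters GLUT1 and GLUT3. Slc2a1 measured 54.4, 46.0, 60.6, 55.5 and 65.4 CPM in Naive 1 to 5, 42.5, 77.7, 61.2, 53.9 and 74.2 CPM in Ag 1 to 5, and 74.4, 72.8, 69.7, 75.8 and 77.2 CPM in Ag+Costim 1 to 5. Every Ag+Costim library lay above every Naive library, and Ag lay across both. The log2 fold change was 0.39 ± 0.15 (FDR = 0.0443) in Ag+Costim vs Naive, a call lost under 14 of 21 alternatives, 0.14 ± 0.15 (FDR = 0.542) in Ag vs Naive and 0.26 ± 0.15 (FDR = 0.278) in Ag+Costim vs Ag. Slc2a3 measured 59.5, 67.6, 65.8, 64.5 and 131 CPM in Naive 1 to 5, 69.7, 77.2, 110.0, 75.6 and 78.0 CPM in Ag 1 to 5, and 101, 111, 95.7, 104 and 109 CPM in Ag+Costim 1 to 5. Naive 5 was at the top of all libraries. The difference in Ag+Costim vs Naive was not called at 0.42 ± 0.20 (FDR = 0.0907). It stayed uncalled under 17 of 21 alternatives, with log2 fold changes of 0.28 to 0.78 over all 21. Without Naive 5, whose removal had to widen the difference, it was 0.71 (FDR = 0.00111).

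Of the hexokinases, which phosphorylate glucose, Hk1 was the abundant form and Hk2 the one with the larger fold. In TPM, a level per length scaled to the library, Hk1 stood at 60.7 ± 13.4 (SD, n = 5) in Naive and 72.2 ± 9.42 in Ag+Costim, and Hk2 at 1.18 ± 1.05 and 3.44 ± 0.658. Hk2 measured 2.56, 2.84, 1.68, 1.88 and 10.8 CPM in Naive 1 to 5, 3.10, 14.3, 19.8, 2.29 and 8.33 CPM in Ag 1 to 5, and 12.3, 11.1, 10.4, 14.6 and 16.3 CPM in Ag+Costim 1 to 5. Naive 5, Ag 2, Ag 3 and Ag 5 were on the side of Ag+Costim, and Naive 1 to 4, Ag 1 and Ag 4 all lay at or under 3.10 CPM. Hk2 was called higher in Ag+Costim than in Naive at 1.71 ± 0.60 (FDR = 0.0344) and Hk1 at 0.42 ± 0.15 (FDR = 0.0352). In Ag vs Naive the values were 1.25 ± 0.60 (FDR = 0.183) for Hk2 and 0.21 ± 0.15 (FDR = 0.335) for Hk1. Hk3 stayed between 0 and 5.34 CPM and was not called by edgeR in any comparison, while voom gave 3.19 (FDR = 0.00325) in Ag+Costim vs Naive.

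In upper glycolysis, 5 of 10 genes rose in Ag+Costim against Naive and 1 fell, where 21.0% of all genes were called higher and 23.6% lower. Phosphofructokinase, the committing step, has 3 isoenzymes, of which Pfkp (chr13:6579768-6648777) was the most abundant at 126 ± 38.3 TPM in Naive and 233 ± 16.3 TPM in Ag+Costim. Pfkp measured 216, 272, 222, 198 and 462 CPM in Naive 1 to 5, 226, 543, 467, 273 and 576 CPM in Ag 1 to 5, and 601, 603, 576, 636 and 660.4 CPM in Ag+Costim 1 to 5. Ag+Costim lay above every Naive library and met the Ag range only at Ag 5. The log2 fold change of Pfkp was 1.17 ± 0.28 (FDR = 0.00848) in Ag+Costim vs Naive, 0.61 ± 0.27 (FDR = 0.161) in Ag vs Naive and 0.56 ± 0.27 (FDR = 0.202) in Ag+Costim vs Ag; without strand in the protocol, its reads and those of the overlapping Pitrm1 cannot be told apart. Pfkl, the liver-type form, rose by 0.60 ± 0.18 (FDR = 0.0193) and Pfkm, the muscle-type form, gave -0.31 ± 0.19 (FDR = 0.184).

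Tpi1 (chr6:124810586-124814296), which interconverts the 3-carbon products of aldolase, rose in Ag+Costim against Naive. Tpi1 measured 75.4, 169, 68.9, 64.2 and 318 CPM in Naive 1 to 5, 90.4, 488, 322, 105 and 557 CPM in Ag 1 to 5, and 466, 433, 409, 578 and 477 CPM in Ag+Costim 1 to 5. Ag 1 and Ag 4 were near Naive 1 to 4, Ag 2 and Ag 5 were within or near the Ag+Costim range, and Ag 3 and Naive 5 lay between. The log2 fold change was 1.76 ± 0.54 (FDR = 0.0217) in Ag+Costim vs Naive, 1.17 ± 0.53 (FDR = 0.167) in Ag vs Naive and 0.60 ± 0.53 (FDR = 0.477) in Ag+Costim vs Ag. Without Naive 5 the comparisons with Naive gave 2.34 (FDR = 0.00353) and 1.74 (FDR = 0.0303). Naive 5 was the highest Naive library, so leaving it out had to widen both. The call in Ag+Costim vs Naive was lost under 4 of 21 alternatives: with lane as a term and without Naive 1, Naive 3 or Naive 4. Gpi1, the isomerase after hexokinase, rose by 0.82 ± 0.21 (FDR = 0.0122) in Ag+Costim vs Naive and Aldoa, the main aldolase, by 0.95 ± 0.27 (FDR = 0.0168). Aldoa counts are those of 1 of the 2 identifiers with this symbol, since the other was near 0.

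The Pfkfb enzymes set the level of fructose 2,6-bisphosphate, an activator of phosphofructokinase. In Ag+Costim vs Naive, 1 of the 3 listed passed the test, against 44.7% of all genes called in either direction. Pfkfb4 measured 6.02, 4.50, 6.15, 5.84 and 2.33 CPM in Naive 1 to 5, 4.13, 0.344, 6.32, 5.15 and 0.876 CPM in Ag 1 to 5, and 1.13, 0.569, 1.62, 1.75 and 2.15 CPM in Ag+Costim 1 to 5. Naive lay above every Ag+Costim library, and Ag spanned both groups. Pfkfb4 fell in Ag+Costim vs Naive at -1.77 ± 0.62 (FDR = 0.0328). Pfkfb2 had no overlap between Naive (2.66 to 6.74 CPM) and Ag+Costim (1.05 to 2.39 CPM) but was not called at -1.56 ± 0.72 (FDR = 0.0864), and Pfkfb3 gave -0.22 ± 0.24 (FDR = 0.445). Aldoc, a minor aldolase, was the 1 gene with every Ag library above every Naive library. Aldoc measured 0.448, 2.05, 1.98, 1.11 and 2.53 CPM in Naive 1 to 5, 7.32, 2.62, 4.79, 6.37 and 2.88 CPM in Ag 1 to 5, and 3.25, 1.63, 2.32, 0.973 and 2.50 CPM in Ag+Costim 1 to 5. Its log2 fold change was 1.56 ± 0.46 (FDR = 0.0542) in Ag vs Naive, just outside the threshold. It was -1.16 ± 0.45 (FDR = 0.127) in Ag+Costim vs Ag, and the comparison with Naive gave 0.39 ± 0.45 (FDR = 0.478).

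**Figure D3:**
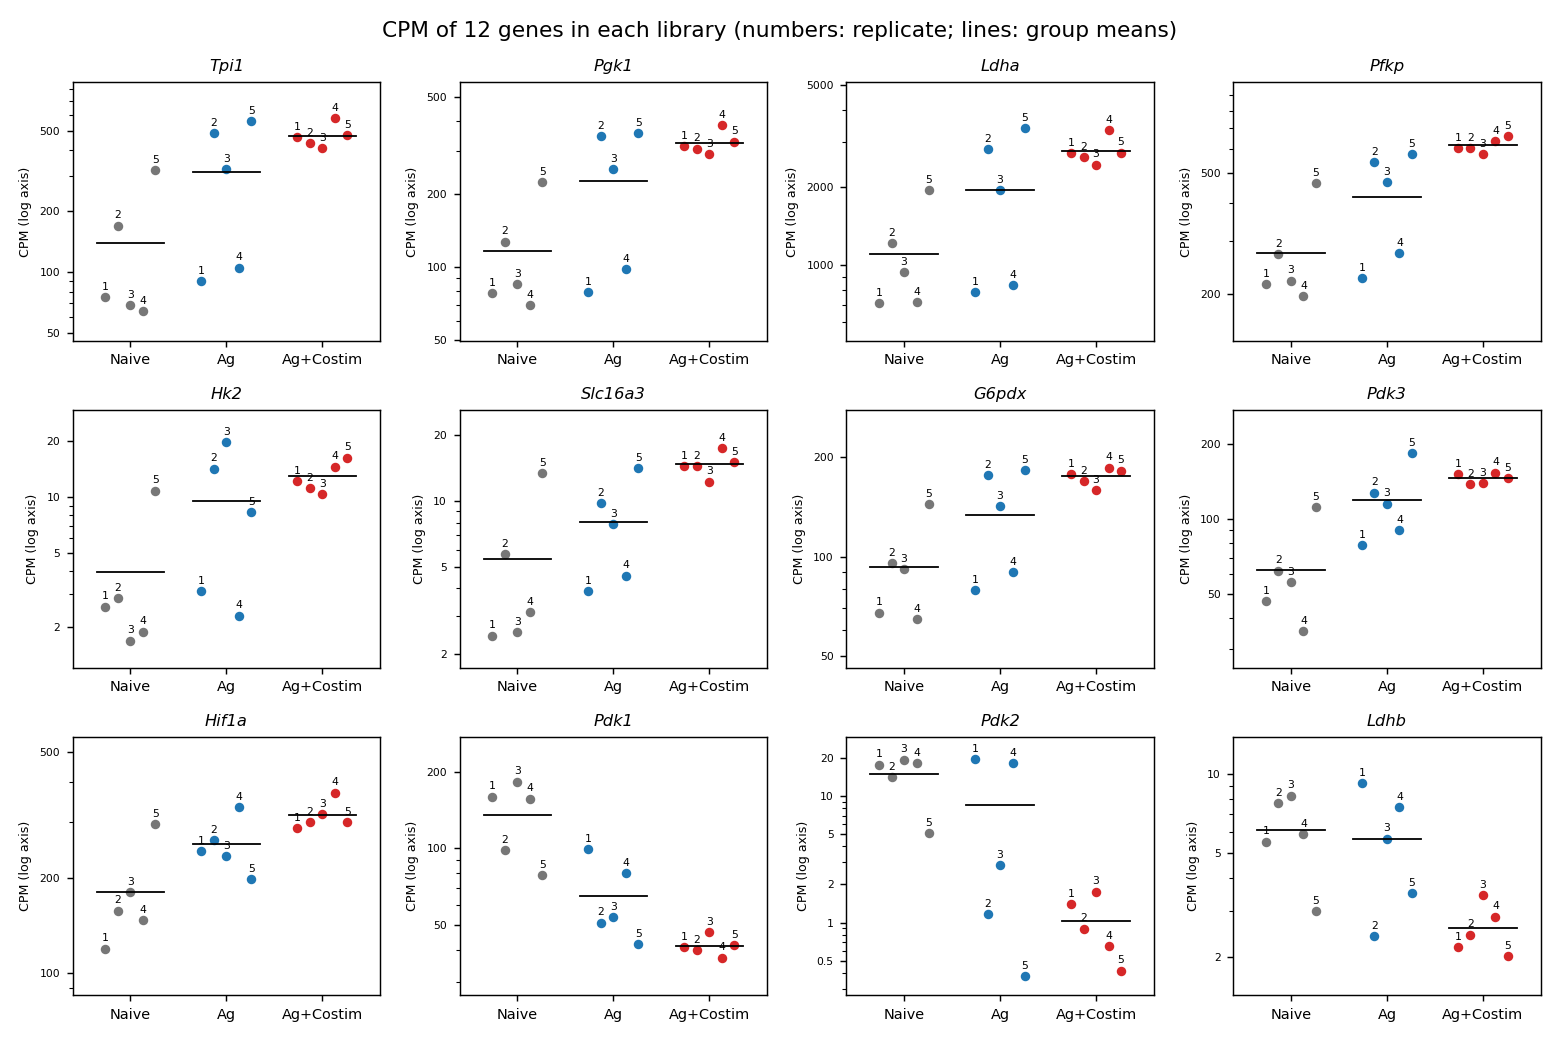
CPM (log axis) of 12 of the genes in each library, with the replicate number beside each point and a line at the group mean (n = 5). Ag libraries spread from the level of Naive to that of Ag+Costim in most panels, with Ag 2 and Ag 5 beside Ag+Costim and Ag 1 and Ag 4 beside Naive. Pdk1, Pdk2 and Ldhb run in the opposite direction.

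In lower glycolysis, 5 of 8 genes rose in Ag+Costim against Naive (Gapdh, Pgk1, Pgam1, Eno1 and Pkm), 1 fell (Eno2), and Eno3 and Bpgm were not called by edgeR. Of all genes, 21.0% were called higher in that comparison and 23.6% lower. With voom, Eno3 was at -0.43 (FDR = 0.0108) in Ag+Costim vs Naive. All 5 that rose had no overlap between the groups, where 22.7% of all genes were higher without overlap. Pgk1 (chrX:106187100-106203699) makes the first ATP of the pathway. Pgk1 measured 77.9, 127, 85.1, 69.7 and 224 CPM in Naive 1 to 5, 79.0, 346, 252, 97.7 and 356 CPM in Ag 1 to 5, and 316, 307, 291, 384 and 328 CPM in Ag+Costim 1 to 5. Its log2 fold change was 1.48 ± 0.42 (FDR = 0.0164) in Ag+Costim vs Naive, 0.95 ± 0.41 (FDR = 0.150) in Ag vs Naive and 0.52 ± 0.41 (FDR = 0.419) in Ag+Costim vs Ag. Pkm measured 458, 623, 559.6, 421 and 1038 CPM in Naive 1 to 5, 492, 1277, 1027, 568 and 1485 CPM in Ag 1 to 5, and 1332, 1323, 1410.2, 1565 and 1486 CPM in Ag+Costim 1 to 5. Pkm, pyruvate kinase, gave 1.20 ± 0.30 (FDR = 0.0111), 0.65 ± 0.30 (FDR = 0.173) and 0.55 ± 0.30 (FDR = 0.249) in the same order. For both genes, Naive 5 was the highest Naive library and Ag 5 the highest Ag library.

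Eno1, the main enolase, rose by 1.24 ± 0.36 (FDR = 0.0177) in Ag+Costim vs Naive, Pgam1, phosphoglycerate mutase, by 1.34 ± 0.37 (FDR = 0.0142), and Gapdh by 1.44 ± 0.43 (FDR = 0.0190). Near-identical copies elsewhere in the genome shared reads with these genes: copies held 74.8% to 82.7% of the counts of Gapdh plus its 77 copies, 40.7% to 42.1% for Eno1, 36.5% to 38.0% for Pgk1, 21.4% to 24.3% for Pgam1 and 13.5% to 14.8% for Pkm. The levels of these genes are uncertain for that reason. With the copies added to their gene, Gapdh was at 1.57 (FDR = 0.0151), Eno1 at 1.35 (FDR = 0.0116), Pgk1 at 1.58 (FDR = 0.0110), Pgam1 at 1.45 (FDR = 0.00982) and Pkm at 1.30 (FDR = 0.00759). Eno2, the neuronal-type enolase, was lower in Ag+Costim vs Naive at -1.54 ± 0.59 (FDR = 0.0471), at 0.141 to 1.73 CPM in these 10 libraries. Eno2 had 0 copies. Its call was lost under 11 of 21 alternatives, among them the fit with copies of other genes added (FDR = 0.0569). Bpgm, which makes 2,3-bisphosphoglycerate, stayed between 20.4 and 27.8 CPM in all 15 libraries, with 0.011 ± 0.10 (FDR = 0.936) in Ag+Costim vs Naive.

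At the lactate step, Ldha rose and Ldhb fell in Ag+Costim against Naive. Ldha (chr7:46841475-46855627), whose enzyme favours lactate formation, was the most abundant of the 37 genes per length, at 1116 ± 466 TPM in Naive, 1649 ± 822 TPM in Ag and 2528 ± 301 TPM in Ag+Costim. Ldha measured 713, 1216, 937, 716 and 1949.6 CPM in Naive 1 to 5, 785, 2802, 1955, 837 and 3403 CPM in Ag 1 to 5, and 2708, 2622, 2446, 3339.8 and 2724 CPM in Ag+Costim 1 to 5. Every Ag+Costim library exceeded every Naive library, and the Ag libraries covered the whole range. The log2 fold change was 1.32 ± 0.39 (FDR = 0.0191) in Ag+Costim vs Naive, 0.82 ± 0.39 (FDR = 0.178) in Ag vs Naive and 0.50 ± 0.39 (FDR = 0.414) in Ag+Costim vs Ag.

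Ldhb (chr6:142490249-142507957), the form that favours lactate oxidation, was scarce. Ldhb measured 5.51, 7.73, 8.24, 5.91 and 2.99 CPM in Naive 1 to 5, 9.21, 2.41, 5.66, 7.45 and 3.51 CPM in Ag 1 to 5, and 2.19, 2.44, 3.44, 2.85 and 2.02 CPM in Ag+Costim 1 to 5. Naive 5, Ag 2 and Ag 5 lay within or next to the Ag+Costim range. Its log2 fold change was -1.23 ± 0.36 (FDR = 0.0177) in Ag+Costim vs Naive and -1.12 ± 0.36 (FDR = 0.0882) in Ag+Costim vs Ag. A copy, Gm5514, held 10.9% to 54.4% of the summed counts, and with it added the first value was -1.18 (FDR = 0.0193). Slc16a3, the lactate exporter MCT4, rose at 1.44 ± 0.46 (FDR = 0.0255) and Slc16a1, the transporter MCT1, gave 0.47 ± 0.26 (FDR = 0.146) in Ag+Costim vs Naive. Slc16a3 measured 2.43, 5.76, 2.54, 3.13 and 13.4 CPM in Naive 1 to 5, 3.87, 9.85, 7.84, 4.58 and 14.1 CPM in Ag 1 to 5, and 14.4, 14.5, 12.3, 17.5 and 15.2 CPM in Ag+Costim 1 to 5. Naive 5 was the 1 Naive library inside the Ag+Costim range. Slc16a1 measured 119, 136, 144, 110.5 and 205 CPM in Naive 1 to 5, 70.9, 192, 126, 67.0 and 142 CPM in Ag 1 to 5, and 182, 189, 175, 229 and 215 CPM in Ag+Costim 1 to 5. Ag 1 and Ag 4 held the lowest Slc16a1 values of all libraries, and in Ag+Costim vs Ag the log2 fold change was 0.72 ± 0.26 (FDR = 0.109).

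The pyruvate dehydrogenase kinases differed in direction. Pdk1 (chr2:71873224-71903858) was the 1 gene of the 37 that edgeR called in Ag vs Naive, at -1.05 ± 0.25 (FDR = 0.0279), and was lower still in Ag+Costim vs Naive at -1.71 ± 0.26 (FDR = 0.00169). Pdk1 measured 159, 98.4, 183, 157 and 78.2 CPM in Naive 1 to 5, 99.4, 51.1, 53.8, 79.8 and 42.2 CPM in Ag 1 to 5, and 40.9, 40.0, 46.7, 37.2 and 41.6 CPM in Ag+Costim 1 to 5. No Ag+Costim library reached the lowest Naive library, and Naive 5 and Naive 2 were the lowest of Naive. Against Ag, the Ag+Costim value was -0.66 ± 0.25 (FDR = 0.122). The call in Ag vs Naive was lost under 8 of 20 alternatives, with log2 fold changes of -1.26 to -0.85 over all 20: leaving out Naive 1, Naive 3, Naive 4, Ag 2 or Ag 5, using no filter, using the 10 libraries of the comparison alone, and fitting lane. By contrast, the call in Ag+Costim vs Naive held under all 21 alternatives, with log2 fold changes of -1.88 to -1.56.

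Pdk2 (chr11:95026258-95041354) had the largest fold of the 37 genes in the edgeR fit, at -3.86 ± 0.89 (FDR = 0.00788) in Ag+Costim vs Naive. Pdk2 measured 17.7, 14.0, 19.4, 18.3 and 5.12 CPM in Naive 1 to 5, 19.6, 1.17, 2.83, 18.3 and 0.376 CPM in Ag 1 to 5, and 1.39, 0.894, 1.76, 0.649 and 0.417 CPM in Ag+Costim 1 to 5. Ag 1 and Ag 4 were at the Naive level, and Ag 2 and Ag 5 at the Ag+Costim level. In Ag+Costim vs Ag the log2 fold change was -3.05 ± 0.87 (FDR = 0.0825), which did not pass. It was -3.28 (FDR = 0.0316) without Ag 2 and -3.36 (FDR = 0.0205) without Ag 5. These were the lowest Ag libraries, so leaving either out had to widen the difference. With single libraries left out the value ran from -3.36 to -2.49, and it stayed uncalled under 17 of 21 alternatives. Pdk3 (chrX:93764607-93832201) went up instead. Pdk3 measured 46.9, 62.1, 55.8, 35.5 and 112 CPM in Naive 1 to 5, 78.5, 128, 115, 89.9 and 183 CPM in Ag 1 to 5, and 152, 138, 139, 153 and 146 CPM in Ag+Costim 1 to 5. Its log2 fold change was 1.22 ± 0.28 (FDR = 0.00724) in Ag+Costim vs Naive, 0.93 ± 0.27 (FDR = 0.0553) in Ag vs Naive and 0.29 ± 0.27 (FDR = 0.498) in Ag+Costim vs Ag. Per length, Pdk1 and Pdk3 stood at 50.0 ± 17.1 and 47.7 ± 20.4 TPM (SD, n = 5) in Naive, within their spread, and at 12.2 ± 1.08 and 101 ± 4.30 TPM in Ag+Costim. Of the pyruvate dehydrogenase subunits, Pdha1, which the kinases phosphorylate, was called at 0.28 ± 0.10 (FDR = 0.0414), a call lost under 14 of 21 alternatives, and Pdhb, whose groups did not overlap, gave 0.21 ± 0.13 (FDR = 0.192); Pdha1 overlaps Map3k15.

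All 4 listed genes of the pentose phosphate pathway rose in Ag+Costim against Naive, without overlap of the groups. Of all genes, 21.0% were called higher in that comparison and 22.7% were higher without overlap. G6pdx (chrX:74409483-74429194) and Pgd (chr4:149149991-149166771) encode the dehydrogenases that yield NADPH. G6pdx measured 67.8, 95.5, 91.9, 64.6 and 145 CPM in Naive 1 to 5, 79.4, 177, 142, 90.0 and 183 CPM in Ag 1 to 5, and 178, 169, 159, 186 and 182 CPM in Ag+Costim 1 to 5. Pgd measured 79.5, 86.4, 90.4, 83.0 and 115 CPM in Naive 1 to 5, 74.6, 110.0, 106, 89.3 and 124 CPM in Ag 1 to 5, and 138, 136, 140.3, 154 and 142 CPM in Ag+Costim 1 to 5. For Pgd alone among the 37 genes, every Ag+Costim library lay above every Ag library as well. The log2 fold change of Pgd was 0.65 ± 0.14 (FDR = 0.00572) in Ag+Costim vs Naive, 0.15 ± 0.14 (FDR = 0.454) in Ag vs Naive and 0.50 ± 0.14 (FDR = 0.0808) in Ag+Costim vs Ag, where DESeq2 gave 0.52 (FDR = 0.00639). G6pdx gave 0.92 ± 0.25 (FDR = 0.0149), 0.53 ± 0.25 (FDR = 0.177) and 0.38 ± 0.25 (FDR = 0.335). Tkt and Taldo1, transketolase and transaldolase, link the pathway back to glycolysis and rose by 1.01 ± 0.29 (FDR = 0.0171) and 0.54 ± 0.19 (FDR = 0.0350) in Ag+Costim vs Naive. The Taldo1 call was lost under 10 of 21 alternatives.

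Hif1a (chr12:73901375-73947530) encodes the oxygen-regulated subunit of hypoxia-inducible factor 1, which is known to act on many of these genes. Hif1a measured 119.8, 158, 180.4, 148 and 295 CPM in Naive 1 to 5, 243, 264, 235, 335 and 198 CPM in Ag 1 to 5, and 287, 299.6, 318, 372 and 299 CPM in Ag+Costim 1 to 5. Naive 5 overlapped Ag+Costim, and Ag 4 rather than Ag 2 or Ag 5 was the highest Ag library, unlike for most of the enzymes. The log2 fold change was 0.81 ± 0.21 (FDR = 0.0124) in Ag+Costim vs Naive, 0.50 ± 0.21 (FDR = 0.138) in Ag vs Naive and 0.31 ± 0.21 (FDR = 0.355) in Ag+Costim vs Ag. Transcript level says nothing of the protein, which is controlled by degradation.

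**Figure D4:**
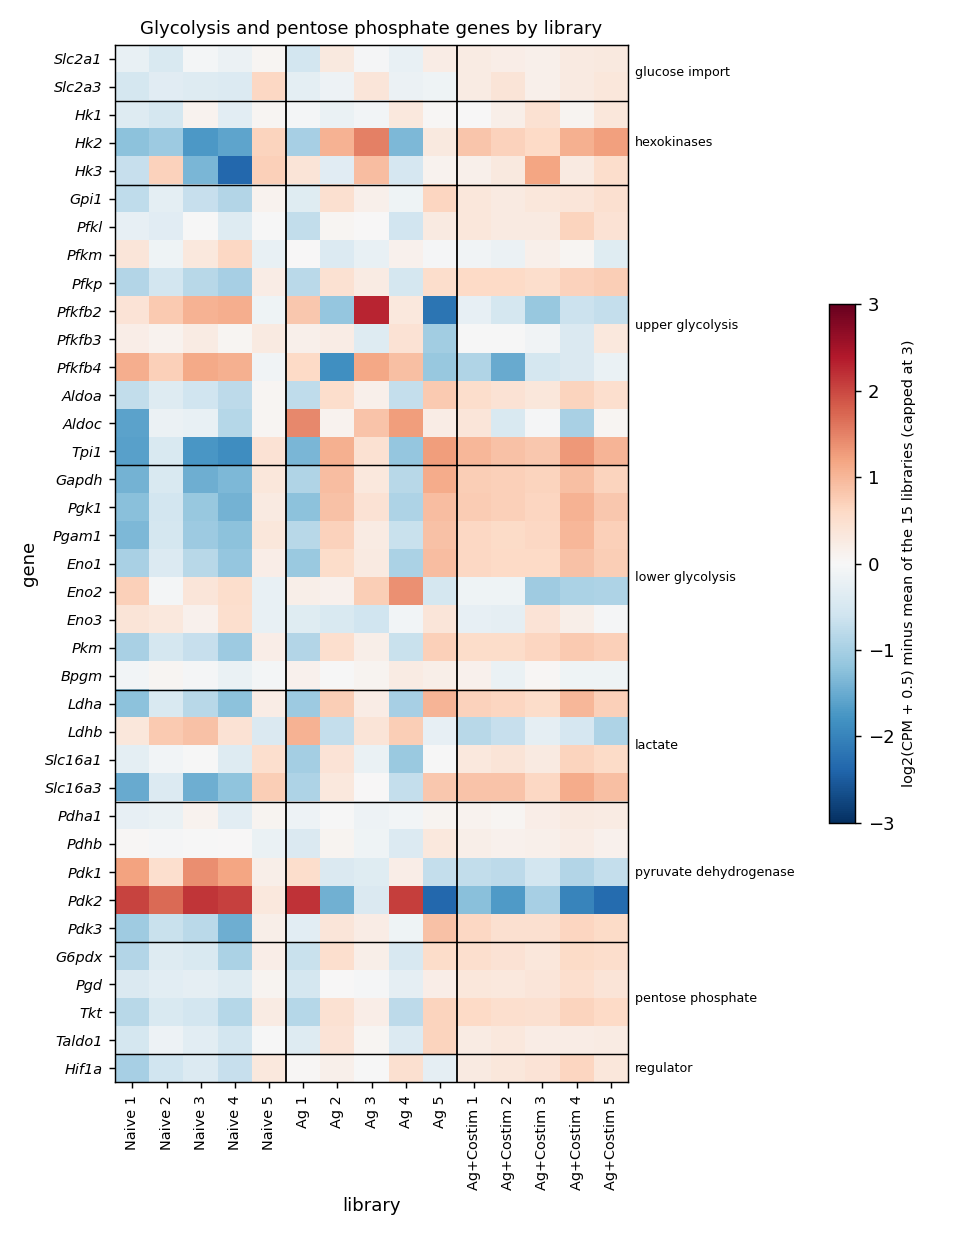
Each gene's log2(CPM + 0.5) in each library, minus its mean over the 15 libraries (red above, blue below, capped at 3), with genes ordered by role and black lines between groups. Ag+Costim columns look alike, Ag 2 and Ag 5 resemble them, and Ag 1 and Ag 4 resemble Naive 1 to 4, with Pdk1, Pdk2, Ldhb and Pfkfb4 in the opposite colour.

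The spread within groups differed. The median coefficient of variation of CPM over the 37 genes was 34.5% for Naive, 43.3% for Ag and 11.0% for Ag+Costim. Among the 22 genes called higher in Ag+Costim than in Naive, Ag 2 was among the 2 highest Ag libraries for 21 and Ag 5 for 20, and Ag 1 was among the 2 lowest for 20 and Ag 4 for 19. Naive 5 was the highest Naive library for 20 of the 22. Ag 5 reached at least the lowest Ag+Costim library for 19 of the 22 genes, Ag 2 for 11, Naive 5 for 5, Naive 3 and Ag 4 for 2 each, Ag 3 for 1, and Ag 1, Naive 1, Naive 2 and Naive 4 for 0. For the 5 genes called lower, Ag 2 and Ag 5 were the 2 lowest Ag libraries each time, and Naive 5 was always among the 2 lowest of Naive. These are descriptions, since the 22 and 5 were chosen on Naive and Ag+Costim values. Ag 2 and Ag 5 had library input amounts of 1.4 and 1.8, where Ag 1, Ag 3 and Ag 4 had 9.4 to 10, and a percent headed RiP of 72.3 and 78.3, where Ag 1, Ag 3 and Ag 4 had 15.4 to 55.0 and Ag+Costim 69.3 to 74.3. Ag 1, Ag 3 and Ag 4 were also the libraries with B cell sums of 137 to 361 CPM, where Ag 2 had 15.6 and Ag 5 20.5 CPM. The part of input amount, RiP, proliferation and cell content in these differences was not tested.

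Isoenzyme shares were computed from TPM to ask whether groups differed in the form used and not only in the sum. Across 6 shares and 3 comparisons (18 two-sided exact permutation tests, smallest possible p = 0.00794), 0 passed a Benjamini-Hochberg adjusted p under 0.05, and the lowest adjusted p was 0.143. Pfkp made up 65.3, 74.4, 62.9, 65.8 and 78.5% of phosphofructokinase TPM in Naive 1 to 5, 74.1, 80.8, 76.7, 76.0 and 78.4% in Ag 1 to 5 and 79.1, 79.0, 77.8, 76.5 and 79.3% in Ag+Costim 1 to 5. The group means were 69.4% ± 6.70 (SD, n = 5) in Naive, with 77.2% ± 2.53 for Ag and 78.3% ± 1.19 for Ag+Costim, and Ag+Costim exceeded Naive by 8.95 percentage points (exact permutation p = 0.0238, adjusted 0.143). Hk2 made up 1.39, 1.72, 0.659, 1.35 and 4.25% of Hk1 plus Hk2 in Naive 1 to 5 and 4.94, 4.09, 3.15, 5.55 and 5.29% in Ag+Costim 1 to 5, a difference of 2.73 points (exact permutation p = 0.0238, adjusted 0.143). In Ag the Hk2 share ran from 0.773% in Ag 4 to 10.1% in Ag 3.

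Ldha made up at least 98.3% of lactate dehydrogenase TPM in every library, with means of 99.15% ± 0.375 in Naive and 99.85% ± 0.0448 in Ag+Costim (n = 5 each, exact permutation p = 0.0159, adjusted 0.143). Slc16a3 made up 5.13% ± 3.61 of Slc16a1 plus Slc16a3 in Naive, with 9.26% ± 3.96 for Ag and 10.9% ± 3.61 for Ag+Costim (n = 5 each, exact permutation p = 0.0317 and adjusted 0.143 for Ag+Costim vs Naive). Slc2a1 made up 44.4% ± 6.97, 43.5% ± 5.62 and 39.7% ± 2.80 of Slc2a1 plus Slc2a3 in the same order, and the difference between Ag+Costim and Naive was -4.70 points (n = 5 each, exact permutation p = 0.190, adjusted 0.400). Pkm transcripts with the M2 exon, the downstream of 2 mutually exclusive 167-base exons (chr9:59675568-59675734, GRCm38), were 97.0% to 98.9% of M1 plus M2 transcripts in all 15 libraries, and the M2 share in Ag+Costim exceeded that in Naive by 0.353 points (n = 5 each, exact permutation p = 0.294, adjusted 0.481). Reads of 50 bases, the length in the labels, limit how well the 2 forms are assigned. With Naive 5 left out, 6 of the 18 differences passed, each at an adjusted p of 0.0476 by the exact test: the Pfkp share in both comparisons with Naive, and the Slc2a1, Hk2, Ldha and Slc16a3 shares in Ag+Costim vs Naive. For the Hk2, Pfkp, Ldha and Slc16a3 shares, Naive 5 was the Naive library nearest to Ag+Costim. Leaving it out therefore had to widen those differences. The Slc2a1 share was 33.1% in Naive 5, the lowest of Naive and below every Ag+Costim library. Its negative difference in Ag+Costim vs Naive therefore had to widen as well.

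**Figure D5:**
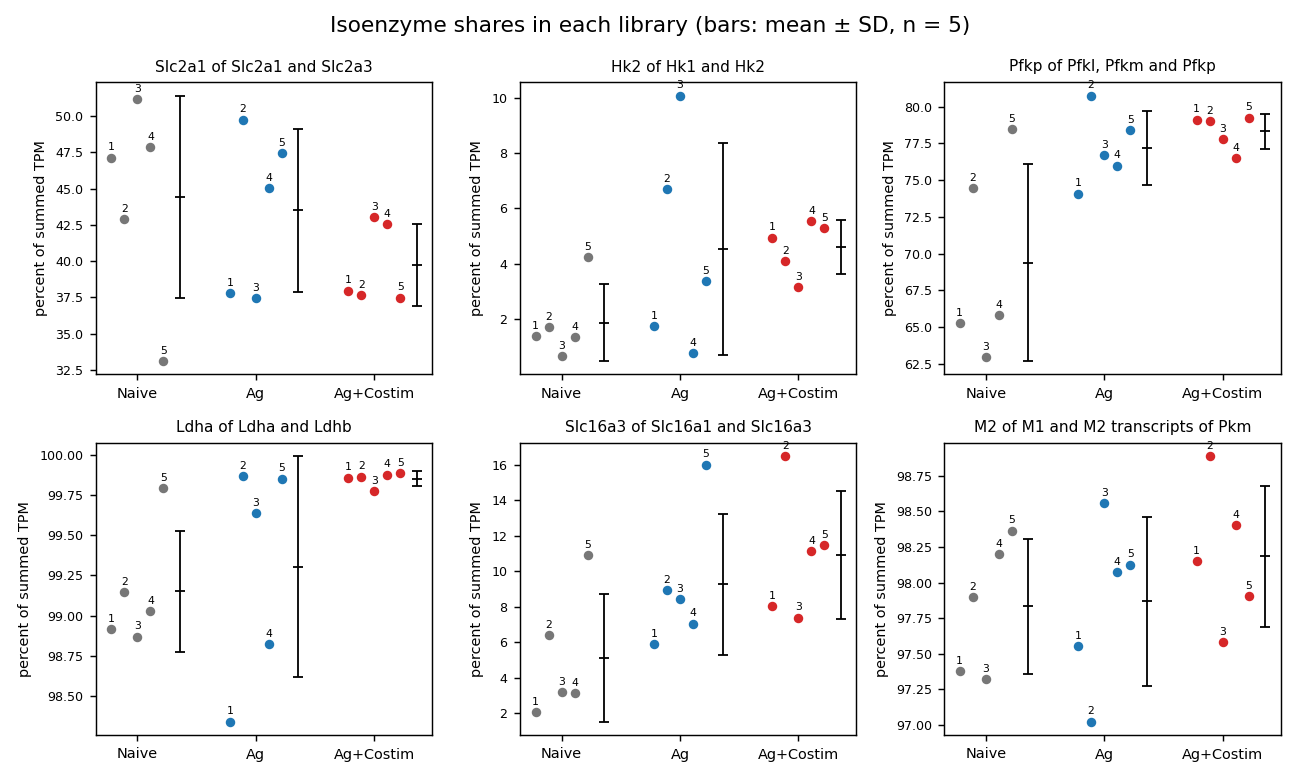
The 6 isoenzyme shares (percent of summed TPM) in each library, with replicate numbers and the mean ± SD of each group (n = 5) at the right; axes do not start at 0. Naive 5 lies nearer to Ag+Costim than Naive 1 to 4 for the Hk2, Pfkp, Ldha and Slc16a3 shares.

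Other genes of central carbon metabolism were taken from a list of 47, of which 33 passed the filter. Against Naive, 17 of the 33 rose in Ag+Costim and 4 fell, where 21.0% of all genes were called higher and 23.6% lower. The median log2 fold change of the 33 was 0.56, against -0.076 over all genes tested. The 3 with the highest fold were Got1, an aminotransferase of the malate-aspartate shuttle, at 1.06 ± 0.26 (FDR = 0.00973), Pfkfb1 at 0.93 ± 0.19 (FDR = 0.00556) and Bsg, the chaperone of lactate transporters, at 0.86 ± 0.26 (FDR = 0.0201). The 3 with the lowest were Ldhd, which acts on D-lactate, at -3.68 ± 1.33 (FDR = 0.0380), Adpgk, an ADP-dependent glucokinase, at -0.87 ± 0.15 (FDR = 0.00237) and Pdpr at -0.64 ± 0.25 (FDR = 0.0499). Ldhd was at no more than 1.74 CPM in any library. In Ag vs Naive 3 rose (Galm, Slc2a8 and Pgm1) and 2 fell (Adpgk and Gpd1l), against 3.05% of all genes higher and 3.66% lower. In Ag+Costim vs Ag 0 were called by edgeR, against 0.0288% of all genes higher and 0.00576% lower. An unadjusted p under 0.05 was reached there by 11, against 26.8% of all genes.

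A list of 22 regulators and targets of HIF-1 and MYC, of which 18 were tested included Myc and HIF-1 targets outside glycolysis. In Ag+Costim vs Naive 1 rose and 7 fell, where 21.0% of all genes were called higher and 23.6% lower. The median log2 fold change of the 18 was -0.38, against -0.076 over all genes tested. Ankrd37, a hypoxia-responsive gene, was the 1 that rose, at 0.53 ± 0.15 (FDR = 0.0171). The lowest were Mlxip at -1.31 ± 0.27 (FDR = 0.00529), Egln3, an oxygen-sensing hydroxylase, at -1.20 ± 0.27 (FDR = 0.00716) and Kdm3a, a histone demethylase, at -1.05 ± 0.24 (FDR = 0.00761). Myc was also lower, at 128 ± 35.9 CPM (SD, n = 5) in Naive, 62.6 ± 6.75 CPM in Ag and 89.8 ± 5.65 CPM in Ag+Costim, with log2 fold changes of -1.04 ± 0.17 (FDR = 0.00781) in Ag vs Naive and -0.52 ± 0.17 (FDR = 0.0264) in Ag+Costim vs Naive. In Ag vs Naive 0 of the 18 rose and 3 fell (Egln3, Myc and Kdm3a), against 3.05% of all genes higher and 3.66% lower. Of the proliferation genes, 11 of 12 rose in Ag+Costim vs Naive, against 21.0% of all genes, with a median log2 fold change of 2.18. In either of the other comparisons 0 were called by edgeR, and 0 had an unadjusted p under 0.05. Of all genes, 28.7% reached that p in Ag vs Naive and 26.8% in Ag+Costim vs Ag.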

How the data were processed

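RNA was made into SMART-Seq v4 and Nextera XT libraries, a protocol that does not mark strand. The labels and the deposited quality table give reads of 50 bases, and the study's methods a longer read. Per the labels, the authors aligned reads to mm10 with HISAT2 2.1.0 and SAMtools 1.9 and deposited the expected counts that StringTie 2.1.0 estimates from coverage, as whole numbers per gene and transcript; the labels also name R 4.0.5 and DESeq2 1.30.1. A deposited quality table gives read counts and percent values such as RiP from the sequencing core. A deposited FPKM table was not used, since its columns for Ag 1 and Naive 5 are identical. Of 81881 gene entries, 55536 matched GENCODE M21 (GRCm38); 26248 were named by a number alone and 97 by neither, and these held 0.0818% of counts and were left out. No column lacked a sample.

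Counts were fitted with edgeR 4.0.16 (R 4.3.3): filterByExpr, TMM factors (0.888 to 1.12), robust quasi-likelihood over all 15 libraries, and Benjamini-Hochberg adjustment over 17366 genes (FDR under 0.05). The common biological coefficient of variation was 0.431. Alternatives were DESeq2 1.42.0, limma 3.58.1 (voom with sample quality weights), other scalings and filters, lane, replicate number and leaving out libraries. TPM was computed from the deposited transcript counts and annotated lengths, and isoenzyme shares were compared with exact permutation tests. Copies were transcripts of other genes with at least 95% identity over at least 300 bases, found by blastn 2.17.0. The fits were tested on simulated data.

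The 37 genes, the other lists, the tests and the alternatives were chosen with earlier results of these data known. Values were given per library for the genes of each role that the comparisons turn on; of the other lists, up to 3 called genes of highest and of lowest fold were named, together with Myc and, after their values were seen, the genes called in Ag vs Naive and further values of Pfkm, Pfkfb2, Hk3, Eno3, Aldoc, Tpi1, Pdk2, Pdk3 and Pdhb. Adding copies and leaving out both Ag 3 and Naive 5 were chosen after the data were seen.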

Additional observations from a re-analysis of the deposited data

Results flagged for a closer look

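Of 129 groups of 5 libraries examined for a library far from the others, 8 had one, and chance gives about 1 in 20, or 6.45. In 4 of the 8 that library was Naive 5. Slc2a3 stood at 131 CPM in Naive 5, with Naive 1 to 4 at 59.5 to 67.6 CPM. Hk2 stood at 10.8 CPM in Naive 5, with the rest at 1.68 to 2.84 CPM. Pfkp reached 462 CPM in Naive 5, with the rest at 198 to 272 CPM, and Tkt 329 CPM, with the rest at 153 to 201 CPM. In Naive 5 the proliferation genes were also the highest of Naive; their part in these values was not tested.

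Slc2a3 was 110.0 CPM in Ag 3, the shallow library with erythroid and B cell genes, with the other Ag libraries at 69.7 to 78.0 CPM. In Ag+Costim, Pgam1 was 310.4 CPM in replicate 4, with the others at 231 to 254 CPM, and Taldo1 was 339 CPM in replicate 2, with the others at 318 to 323 CPM. The Ldha share was 99.77% in Ag+Costim 3, with the others at 99.86% to 99.88%.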

How the results depend on the processing

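Of the 37 genes, 27 were called between Ag+Costim and Naive, 1 between Ag and Naive and 0 between Ag+Costim and Ag; the share of all genes called under the same setting is given in brackets. For Ag vs Naive the count was 4 with DESeq2 (15.5%), 2 with library totals alone (6.55%), 0 without a filter on low counts (0.425%), 0 with the 10 libraries of the comparison (0.0358%), 0 with lane as a term (0.00%), 8 with voom (23.1%), 15 without both Ag 3 and Naive 5 (22.9%), and 0 to 14 when single libraries were left out, with 14 reached without Naive 5 (21.5%). For Ag+Costim vs Ag it was 6 with DESeq2 (20.5%), 30 with voom (64.5%), 2 without both libraries (5.73%), and 0 to 8 with single libraries left out (8 without Ag 5, 19.7%, and 5 without Ag 2, 14.8%). For Ag+Costim vs Naive it was 2 with lane as a term (5.43%), 35 with voom (77.9%) and 13 to 28 with single libraries left out, lowest without Naive 4 (21.6%). The cause was not tested.

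Correlations of same-numbered libraries ran from -0.324 to 0.47, within those of differently numbered libraries (-0.594 to 0.493), so the numbers were not read as pairs. With the replicate number as a block the count was 3 in Ag vs Naive (9.56% of all genes), 26 in Ag+Costim vs Naive (45.1%) and 0 in Ag+Costim vs Ag (0.00%).

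Direction turned under some alternatives for genes that were not called in the comparison concerned. In Ag vs Naive, voom gave -0.15 for Slc2a1, 0.074 for Pfkfb3 and 0.32 for Ldhb, added copies gave 0.050 for Ldhb, no filter gave -0.062 for Slc2a3, and lane as a term gave 0.030 for Slc16a1, -1.09 for Eno2 (0.28 without it) and 0.22 for Pfkfb4 (-0.60 without it). Pfkl was -0.30 with voom (0.044 with edgeR), and Pfkfb2, at 0.027, was -1.05 without both Ag 3 and Naive 5. Leaving out single libraries gave -0.046 to 0.36 for Slc2a3 and -0.37 to 0.092 for Ldhb. For Ag+Costim vs Ag, Pfkfb3 was 0.0012 with DESeq2, 0.23 without a filter, 0.023 with the replicate block, 0.061 with copies and -0.18 to 0.17 with single libraries left out, Bpgm was 0.085 without a filter, and Pfkm was -0.18 with voom (0.018 with edgeR). For Ag+Costim vs Naive, Bpgm was -0.016 with DESeq2, -0.020 with RLE factors, -0.14 with library totals, -0.046 with 10 libraries, -0.073 with lane as a term, -0.070 in lane 3 alone and -0.037 to 0.13 with single libraries left out.

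With single libraries left out, the Slc2a1 share differed by -3.77 to 0.734 points in Ag vs Naive and -7.52 to -3.02 in Ag+Costim vs Naive, the M2 share by -0.137 to 0.247 in Ag vs Naive, and the Pfkp share by 6.20 to 10.1 and 7.34 to 11.2. In Ag+Costim vs Naive the ranges were 2.43 to 3.32 for Hk2, 0.631 to 0.862 for Ldha and 4.37 to 7.21 for Slc16a3, and in Ag+Costim vs Ag -0.867 to 1.46 for Hk2, which was -0.470 in lane 2 alone.

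The calls of Pdk1 and Pgd in Ag+Costim vs Naive held under all 21 alternatives. Those of Slc2a1 and Pdha1 were lost in 14, Eno2 in 11, Hk1 and Taldo1 in 10, and Hk2 and Pfkfb4 in 9. Slc16a3 lost its call in 5, Tpi1 in 4, Gapdh, Eno1 and Ldha in 3 each, and Pfkl, Ldhb, Tkt and Hif1a in 2 each. The other called genes lost theirs only with lane as a term. Library totals moved the median of all genes in that comparison from -0.076 to -0.23. Short reads (50 bases per the labels) limit the split between a gene and its copies.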
